A study of Mus musculus with 12 samples.

Results

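Fga, Fgb and Fgg, the 3 genes that encode the Aα, Bβ and γ chains of fibrinogen, were followed in bulk RNA-seq of mouse liver. They were chosen by gene name, as the 3 rows of 51609 in the count table whose Ensembl identifiers carry these symbols in the GENCODE vM1 annotation, and all 3 were measured in every library and passed the filter on low counts. The 12 livers formed 4 groups of 3: wild-type untreated, wild-type DSS-treated, and untreated and DSS-treated mice with the label of a Rela and Stat3 knockout. DSS, dextran sodium sulfate, injures the colon lining and was given at 2% in drinking water for 6 days, while untreated mice are labelled as receiving water. All mice were C57BL/6 and, by the study's methods, 5 to 7 weeks old and of either sex. The knockout line (RelaΔhepStat3Δhep) deletes the floxed genes with Cre driven by the albumin promoter, which is active in hepatocytes, so the other cells of the liver keep Rela and Stat3. The wild-type mice were Cre-negative littermates whose Rela and Stat3 alleles were also floxed. The comparisons ask how the liver responds to colitis and whether that response needs Rela, a subunit of NF-κB, and Stat3, the transcription factor downstream of interleukin 6 and related cytokines.

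Fibrinogen is made almost entirely by hepatocytes. Its 3 chains are joined by disulfide bonds in the endoplasmic reticulum into a dimer of trimers and secreted into plasma, where thrombin turns it into fibrin, the mesh of a clot, which plasmin later dissolves. The genes lie side by side in a single cluster and are a textbook example of acute-phase genes: interleukin 6 raises their transcription together through Stat3 and C/EBP factors, on a basal level set by hepatocyte factors such as HNF1.

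In mm9, Fgg (ENSMUSG00000033860) was at chromosome 3, 82811781 to 82818975 on the plus strand, Fga (ENSMUSG00000028001) at 82830075 to 82838036 on the plus strand, and Fgb (ENSMUSG00000033831) at 82846169 to 82853725 on the minus strand. All 3 are protein-coding. The promoters, which are the sequences that the transcription factors in question would read, were taken from RefSeq (GRCm38.p6), with 250 bases before and 50 after each annotated start, in the direction of the gene. They lie at chr3:83025903-83026202 (plus strand, Fga), chr3:83049814-83050113 (minus strand, Fgb) and chr3:83007474-83007773 (plus strand, Fgg), and each occurs exactly 1 time on chromosome 3 of the mm9 genome. In mm9 the windows of Fgb and Fgg end upstream of the GENCODE gene start, since the RefSeq start is farther out. Capitals mark matches on either strand to the STAT motif TTCNNNGAA, the interleukin 6 response core CTGGGAA, the C/EBP motif TTNNGNAA and the HNF1 sequence GTTAAT.
Fga: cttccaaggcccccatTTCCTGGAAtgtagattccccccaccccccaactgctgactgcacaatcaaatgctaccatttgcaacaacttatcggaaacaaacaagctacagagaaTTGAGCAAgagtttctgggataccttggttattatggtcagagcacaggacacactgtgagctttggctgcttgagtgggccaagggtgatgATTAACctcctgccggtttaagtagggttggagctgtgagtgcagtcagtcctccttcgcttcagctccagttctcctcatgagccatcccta
Fgb: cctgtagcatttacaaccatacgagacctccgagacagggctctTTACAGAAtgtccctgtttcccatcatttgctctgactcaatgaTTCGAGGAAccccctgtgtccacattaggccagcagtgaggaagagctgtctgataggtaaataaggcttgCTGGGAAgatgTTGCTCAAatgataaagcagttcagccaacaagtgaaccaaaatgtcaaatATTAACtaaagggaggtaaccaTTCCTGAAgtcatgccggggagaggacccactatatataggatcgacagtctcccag
Fgg: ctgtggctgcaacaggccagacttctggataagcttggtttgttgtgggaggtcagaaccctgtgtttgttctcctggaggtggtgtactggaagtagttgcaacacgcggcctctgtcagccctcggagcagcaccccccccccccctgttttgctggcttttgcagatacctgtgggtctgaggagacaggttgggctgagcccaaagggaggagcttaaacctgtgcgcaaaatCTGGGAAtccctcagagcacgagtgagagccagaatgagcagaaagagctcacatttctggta
The Fgb window held a match to each of these 4 motifs, with the STAT motif at bases 89 to 97, the interleukin 6 core at 160 to 166, 3 C/EBP matches and an HNF1 match at 222 to 227, counted from the 5′ end of the printed sequence. The Fga window held the STAT motif at bases 17 to 25, a C/EBP match at 116 to 123 and an HNF1 match at 208 to 213. In the Fgg window only the interleukin 6 core was found, at bases 238 to 244. Among 32851 RefSeq promoters of this length, 8.3% held the STAT motif, 11.1% the interleukin 6 core, 40.7% the C/EBP motif and 7.1% the HNF1 sequence. The NF-κB consensus (4.51% of all promoters) and the TATA box TATAAA (13.6%) were in none of the 3 windows. No match overlapped another, and these matches describe the letters in these windows, not binding.

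Libraries held 65879529 to 82850098 estimated counts, and levels are given as CPM, the count scaled to the library's total times its TMM factor. Rela was at 39.8 to 55.5 CPM in the 6 wild-type livers and at 39.5 to 62.3 CPM in the 6 livers labelled RelaΔhepStat3Δhep, and Stat3 at 45.7 to 330 CPM against 43.0 to 74.8 CPM. A count over the whole gene includes exons outside the deleted part and the RNA of other cells, so it does not check the genotype, and the latter livers are called knockout-labelled below. The 8 hepatocyte markers with a row were detected in every library, at a summed 137053 to 203588 CPM. Xist, which is expressed from the inactive X chromosome, was at 903 to 1283 CPM in all 3 DSS-treated knockout-labelled livers and at 1143 CPM in wild-type untreated liver 3, and at no more than 29.0 CPM in the other 8. The 4 Y-linked genes summed to at most 0.12 CPM in those 3 knockout-labelled livers, to 30.1 CPM in wild-type untreated liver 3 and to 175 to 241 CPM elsewhere, so sex and group cannot be told apart in any comparison with the DSS-treated knockout-labelled livers. Wild-type DSS liver 2 stood apart by its TMM factor (0.758 against 0.953 to 1.13) and by 6 neutrophil markers, which summed to 101 CPM against 0.345 to 22.3 CPM in the other 11.

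Fga was at 3687, 4787 and 3726 CPM in the wild-type untreated livers 1, 2 and 3 and at 6554, 24597 and 14311 CPM in the DSS-treated ones. Fgb was at 4247, 4697 and 3739 CPM before and at 5620, 23186 and 12197 CPM after DSS. Fgg was at 3139, 3653 and 2963 CPM before and at 4240, 18945 and 9778 CPM after DSS. For every chain, all DSS-treated wild-type livers lay above all untreated ones, liver 2 was the highest and liver 1 was closest to the untreated range. In the knockout-labelled livers Fga was at 4303, 3074 and 3723 CPM untreated and at 3027, 3514 and 5194 CPM after DSS. Fgb was at 3922, 3105 and 3396 CPM untreated and at 4829, 4030 and 5088 CPM after DSS. Fgg was at 3345, 2312 and 2382 CPM untreated and at 4105, 2589 and 3945 CPM after DSS. Here the treated and untreated livers overlapped for Fga and Fgg and not for Fgb, and no knockout-labelled liver reached the lowest DSS-treated wild-type liver in Fga, Fgb or Fgg.

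**Figure D1:**
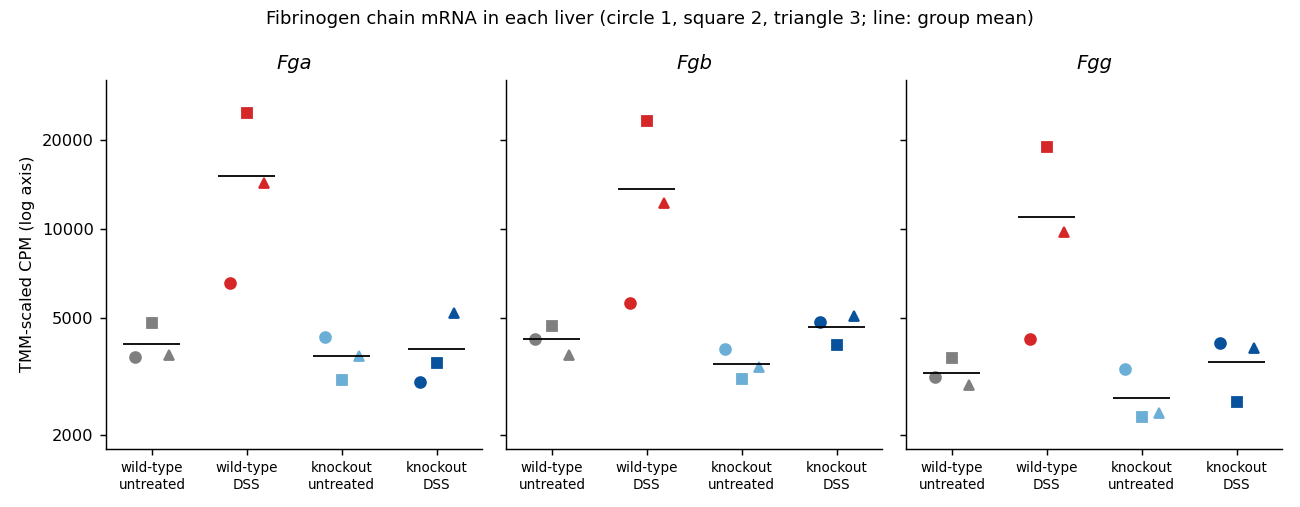
TMM-scaled CPM (log axis) of Fga, Fgb and Fgg in each liver of the 4 groups, with the group mean as a line. The DSS-treated wild-type livers spread from 6554 to 24597 CPM for Fga, and the other 9 livers lie between 3027 and 5194 CPM.

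By count, which also grows with transcript length, the chains ranked between 7 and 44 among all genes of their libraries. Together they took 1.17% ± 0.157 (SD, n = 3) of all counts in wild-type untreated, 3.49% ± 1.67 in wild-type DSS-treated, 1.00% ± 0.173 in knockout-labelled untreated and 1.25% ± 0.157 in knockout-labelled DSS-treated livers. Per 100 counts of Alb, the albumin gene and another major secretory product of the same cells, there were 10.1, 14.0 and 10.9 fibrinogen counts in the wild-type untreated livers. After DSS there were 14.8, 102 and 57.7, so that in wild-type liver 2 the summed counts of the chains were as many as those of Alb. The knockout-labelled livers held 10.4, 7.47 and 9.02 per 100 untreated and 7.96, 9.34 and 12.6 after DSS. Alb itself was at 65408 and 62894 CPM in wild-type DSS livers 2 and 3, against 93686 to 150254 CPM in the other 10, so both terms of this ratio differed in those livers. Of the 8 hepatocyte markers, liver 2 had 4 below the wild-type untreated range (Alb, Ttr, Cps1 and Cyp2e1) and 4 above it (Apoa1, Apob, Trf and Asgr1). Liver 3 had 2 below it (Alb and Cps1) and 5 above it (Apoa1, Apob, Trf, Cyp2e1 and Asgr1), so the markers did not move one way. In bulk RNA, fewer hepatocytes and less RNA per hepatocyte cannot be told apart.

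In wild-type liver, DSS went with 3.73-fold more Fga (log2 fold change 1.90, SE 0.40, 95% confidence interval 1.04 to 2.76), 3.23-fold more Fgb (1.69, SE 0.39) and 3.38-fold more Fgg (1.76, SE 0.42). Mean levels went from 4067 ± 624 to 15154 ± 9051 CPM for Fga, from 4227 ± 479 to 13668 ± 8875 CPM for Fgb and from 3252 ± 358 to 10988 ± 7427 CPM for Fgg (SD, n = 3). None of the 3 chains passed an adjusted p of 0.05 in edgeR's quasi-likelihood test, with adjusted p of 0.0514, 0.0673 and 0.0792 for Fga, Fgb and Fgg, while 121 of 17652 genes tested (0.685%) did. With only the groups compared in the fit, the SEs were 0.48, 0.49 and 0.51, and the edgeR adjusted p were 0.212, 0.249 and 0.247. With other scalings or filters Fga passed in edgeR, at adjusted p of 0.0411 to 0.04996, as given in the last section. All 3 chains had an unadjusted p under 0.05 with a higher level, as did 8.36% of all genes. Groups that did not overlap, with DSS higher, were also found in all 3 chains and in 9.49% of all genes, and the exact permutation test gave its smallest possible two-sided p, 0.1, for each. DESeq2's Wald test called all 3 (adjusted p 1.87e-05, 0.000154 and 0.000391) and 5.61% of the genes it tested, and limma-voom called none of the 3 (0.0540, 0.0829 and 0.12) and 1.19% of all genes.
The size of this difference rested on which wild-type DSS livers were counted. Against the untreated mean on the log2 scale, liver 1 held 1.62 times as much Fga, 1.34 times as much Fgb and 1.31 times as much Fgg. The corresponding values were 6.09, 5.51 and 5.85 in liver 2 and 3.55, 2.90 and 3.02 in liver 3, so the 3 chains ranked the livers alike. Without liver 1 the log2 fold changes were 2.26, 2.06 and 2.14 and all 3 passed in edgeR (adjusted p 0.00671, 0.00671 and 0.0102). Without liver 2, the library with the neutrophil markers, they were 1.35, 1.07 and 1.10 with adjusted p of 0.0725, 0.0982 and 0.145. All 3 chains therefore lay above the untreated mean in each wild-type DSS liver, and the size of the difference followed livers 2 and 3.

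In knockout-labelled liver no chain passed the test after DSS. The log2 fold changes were 0.08 for Fga (SE 0.38), 0.42 for Fgb (SE 0.38) and 0.40 for Fgg (SE 0.41), with edgeR adjusted p of 0.926, 0.539 and 0.593. These SEs use a spread pooled over all 4 groups, in which the wild-type DSS livers vary most. With only the 2 groups compared in the fit, they were 0.24, 0.19 and 0.24, and the edgeR adjusted p were 0.899, 0.206 and 0.328 (unadjusted 0.810, 0.0597 and 0.134). None of the 3 was called in edgeR, DESeq2 or limma-voom and none had an unadjusted p under 0.05, although 7.02% of all genes (1240 of 17652) passed in edgeR, 13.9% in DESeq2 and 10.2% in limma-voom, and 24.1% had such an unadjusted p. Only Fgb had groups that did not overlap, with DSS higher, as had 17.8% of all genes. Group means were 3700 ± 615 and 3912 ± 1137 CPM for Fga, 3474 ± 414 and 4649 ± 551 CPM for Fgb, and 2679 ± 577 and 3546 ± 833 CPM for Fgg (SD, n = 3, untreated and DSS-treated). The upper 95% limits allow 1.88-fold more Fga, 2.35-fold more Fgb and 2.45-fold more Fgg after DSS. Against their untreated mean, single DSS-treated livers held 0.826, 0.959 and 1.42 times as much Fga, 1.40, 1.17 and 1.47 times as much Fgb, and 1.55, 0.981 and 1.49 times as much Fgg. The direction of Fga thus differed among the livers, whereas Fgb was above the untreated mean in each.

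The next comparison asks whether the genotype sets the basal level. In untreated mice, knockout-labelled minus wild-type log2 differences were -0.14 for Fga (SE 0.38), -0.28 for Fgb (SE 0.38) and -0.28 for Fgg (SE 0.41). No chain passed in edgeR (adjusted p 0.925, 0.820 and 0.841), DESeq2 or limma-voom, and none had an unadjusted p under 0.05. Of all genes, 0.0623% (11 of 17652) passed in edgeR, 2.31% in DESeq2 and 0.538% in limma-voom, and 11.7% had such an unadjusted p. The groups overlapped for all 3 chains, while 20.2% of all genes had groups that did not overlap in either direction. The 95% intervals run from 0.512-fold to 1.62-fold for Fga, from 0.468-fold to 1.44-fold for Fgb and from 0.446-fold to 1.52-fold for Fgg. They too use the spread pooled over the 4 groups. With only the untreated groups in the fit, the SEs were 0.18, 0.15 and 0.18 for differences of -0.13, -0.27 and -0.27, and no chain passed in edgeR (adjusted p 0.782, 0.442 and 0.512).

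After DSS, the knockout-labelled livers held 0.258 times the Fga (log2 difference -1.95, SE 0.40), 0.340 times the Fgb (-1.56, SE 0.38) and 0.323 times the Fgg (-1.63, SE 0.42) of wild-type livers. Groups did not overlap, with knockout-labelled lower, for all 3 chains and for 7.98% of all genes, and the exact permutation p was again 0.1. In edgeR none of the 3 passed (adjusted p 0.0606, 0.112 and 0.118), and 59 of 17652 genes (0.334%) did. All 3 had an unadjusted p under 0.05 in this direction, as had 7.08% of all genes. DESeq2 called all 3 (adjusted p 1.13e-05, 0.000845 and 0.00153) and 3.91% of the genes it tested, and limma-voom none of the 3 (0.131, 0.206 and 0.255) and 0.164% of all genes. This comparison shares its wild-type DSS livers with the wild-type response. Without wild-type DSS liver 1 the differences were -2.31, -1.93 and -2.02 and all 3 passed in edgeR (adjusted p 0.00384, 0.00543 and 0.00855), and without liver 2 they were -1.41, -0.94 and -0.98 (0.0983, 0.185 and 0.221). The 3 knockout-labelled livers here are the ones with high Xist, and the 3 wild-type livers all had Y-linked transcripts, so sex and genotype cannot be told apart here.

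The difference between the responses (knockout-labelled minus wild-type) was -1.82 on the log2 scale for Fga (SE 0.55), -1.27 for Fgb (SE 0.53) and -1.35 for Fgg (SE 0.58). None of the 3 passed in edgeR (adjusted p 0.154, 0.265 and 0.275), where 72 of 17652 genes (0.408%) did. All 3 had an unadjusted p under 0.05 with a smaller response in knockout-labelled liver, as had 7.46% of all genes. DESeq2 called Fga (adjusted p 0.0118), neither Fgb nor Fgg, and 4.50% of the genes it tested, and limma-voom called none of the 3 and 0.368% of all genes. Without wild-type DSS liver 1 the values were -2.17, -1.64 and -1.74 and Fga passed in edgeR (adjusted p 0.0303, 0.0547 and 0.0687), and without liver 2 they were -1.29, -0.66 and -0.71 and none passed (0.178, 0.373 and 0.416). The size for Fgb and Fgg thus rested on liver 2. The 95% intervals, before any adjustment, ran from -3.00 to -0.63 for Fga, from -2.43 to -0.12 for Fgb and from -2.61 to -0.10 for Fgg.

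**Figure D2:**
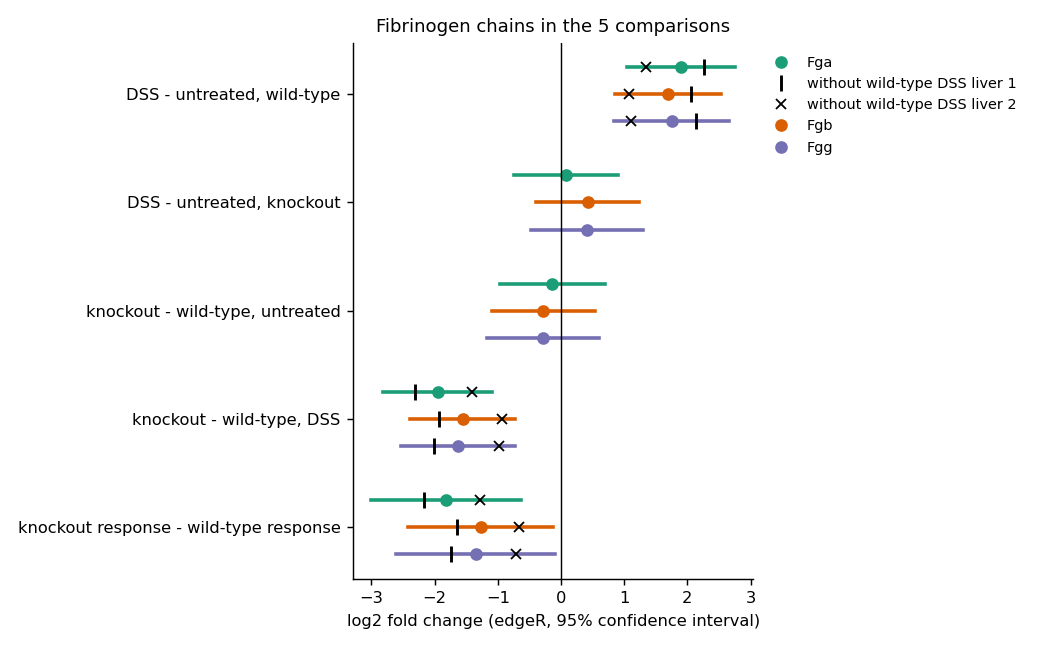
Log2 fold change of each chain in the 5 comparisons, with its 95% confidence interval from edgeR, and the value without wild-type DSS liver 1 (bar) or liver 2 (cross) where that group enters. The wild-type response lies at 1.69 to 1.90, and the 2 comparisons that set knockout-labelled liver against the DSS response of wild-type liver lie below 0 for every chain.

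Co-regulation of the chains was read from their ratios, which do not depend on library size. Over all 12 livers the log2 levels spanned 3.02 for Fga, 2.90 for Fgb and 3.03 for Fgg, whereas the log2 count ratio spanned 0.41 for Fgg to Fgb, 0.90 for Fga to Fgb and 1.08 for Fga to Fgg. Over all 12 livers the Bβ and γ mRNAs thus kept the narrowest balance, between 0.642 and 0.853 Fgg counts per Fgb count. The ranking rested on knockout-labelled DSS liver 1. Without that liver the log2 ratio of Fga to Fgb lay between -0.204 and 0.231. That of Fga to Fgg then lay between 0.232 and 0.645, and that of Fgg to Fgb between -0.638 and -0.230. No pair was then clearly narrower than the others. Fga to Fgb was at 0.868, 1.02 and 0.997 in wild-type untreated and at 1.17, 1.06 and 1.17 in wild-type DSS-treated livers, groups that did not overlap. It was at 1.10, 0.990 and 1.10 in knockout-labelled untreated livers and at 0.627, 0.872 and 1.02 after DSS, where livers 1 and 2 lay below all 3 untreated ones and liver 3 between them. The log2 difference was 0.24 in the wild-type and -0.36 in the knockout-labelled response, with exact permutation p of 0.1 and 0.2. Between the genotypes it was 0.14 untreated (exact permutation p 0.3) and -0.46 after DSS (p 0.1, groups not overlapping). Over the 12 ratio tests the lowest adjusted p was 0.48.
Knockout-labelled DSS liver 1 stood apart in its balance. Fga made up 25.3% of the summed count of the 3 chains there and 33.3% to 39.9% in the other 11 livers, with Fgb at 40.4% (33.6% to 39.8% elsewhere) and Fgg at 34.3% (25.1% to 28.9% elsewhere). Without this liver the Fga to Fgb difference was -0.17 for the knockout-labelled response and -0.26 between the genotypes after DSS.

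**Figure D3:**
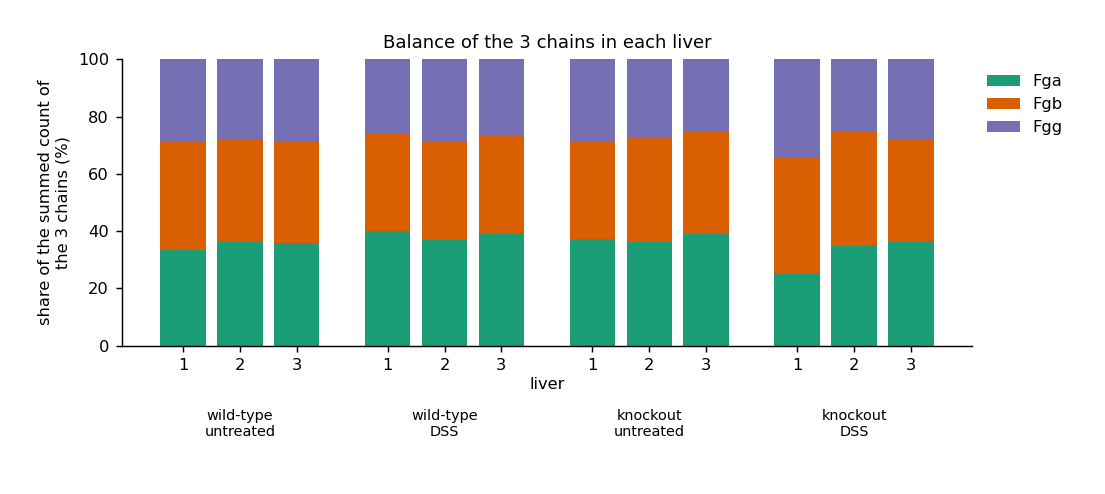
Share of Fga, Fgb and Fgg in the summed count of the 3 chains in each liver, in percent. Fga lies between 33.3% and 39.9% in 11 livers and at 25.3% in knockout-labelled DSS liver 1, and Fgg between 25.1% and 28.9% in the 11 and at 34.3% in that liver.

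As a description over the 12 livers, log2 Fgg followed log2 Fgb with Pearson's r of 0.99 and Spearman's rho of 0.96. For Fga the values were 0.97 and 0.70 with Fgb, and 0.95 and 0.71 with Fgg. Without the 2 highest livers, wild-type DSS 2 and 3, r was 0.93 for Fgg with Fgb, 0.69 for Fga with Fgb and 0.60 for Fga with Fgg. It thus fell more for the pairs with Fga. The livers that remain include knockout-labelled DSS liver 1, where Fga made up 25.3% of the summed count. The part of that liver in the lower r was not tested. With each group's mean taken away r was 0.98, 0.93 and 0.89. Levels from the same library share its depth and scaling factor.

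**Figure D4:**
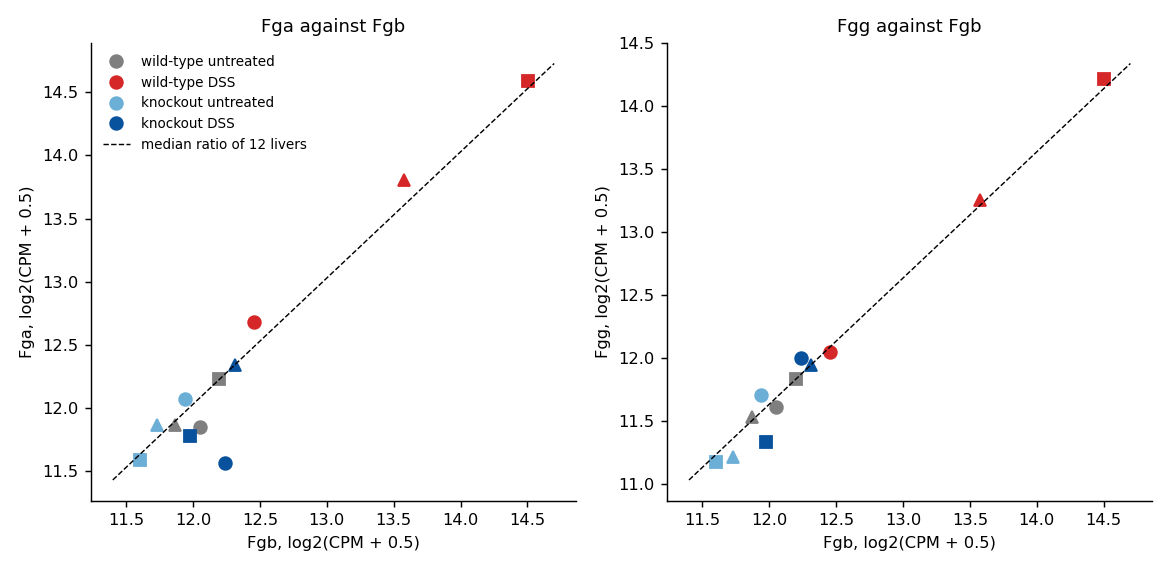
Log2(CPM + 0.5) of Fga and of Fgg against Fgb in each of the 12 livers (circle, square and triangle for livers 1, 2 and 3), with a line of slope 1 at the median ratio. Wild-type DSS livers 2 and 3 extend the line at the upper right, and the circle farthest below it in the Fga panel is knockout-labelled DSS liver 1.

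The spread between livers was set against that of other abundant genes. The SD of log2(CPM + 0.5) was 0.21, 0.16 and 0.16 for Fga, Fgb and Fgg in wild-type untreated livers, where the median over 1280 genes with a mean of at least 100 CPM was 0.17, and these values exceeded those of 64.2%, 48.3% and 45.9% of the genes. In knockout-labelled untreated livers it was 0.24, 0.17 and 0.30 beside a median of 0.17, above 71.6%, 49.2% and 82.7% of them. In wild-type DSS-treated livers it reached 0.96, 1.02 and 1.08 beside a median of 0.27, above 93.1%, 94.1% and 94.8% of those genes. The highest wild-type DSS liver held 3.75 times the Fga, 4.13 times the Fgb and 4.47 times the Fgg of the lowest. In knockout-labelled DSS-treated livers the SD was 0.40, 0.18 and 0.37 beside a median of 0.22, above 87.5%, 37.7% and 84.1% of them, so Fgb was the steadiest chain of that group.

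Levels can be compared between the chains only per length. Per kilobase of annotated exon (2933 bases for Fga, 1644 for Fgb and 1964 for Fgg), Fgb had the highest level in all 12 livers, and Fgg was above Fga in 10 of them. In wild-type untreated liver the levels were 2571 ± 292 CPM per kilobase for Fgb, 1656 ± 182 for Fgg and 1387 ± 213 for Fga (SD, n = 3). After DSS they were 8314 ± 5398, 5595 ± 3781 and 5167 ± 3086, so that the order of the means was kept while the spread of each exceeded the gap between neighbours. In knockout-labelled liver they were 2113 ± 252, 1364 ± 294 and 1261 ± 210 untreated and 2828 ± 335, 1806 ± 424 and 1334 ± 388 after DSS. Livers with the highest Fga overlapped livers with the lowest Fgg in every group, while Fgb overlapped neither chain except in the wild-type DSS livers. The length used for Fga covers all annotated exons of the gene, including those that not every transcript holds.

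The genes whose log2 level followed the mean of the 3 chains most closely over the 12 livers were Atp8b1, a phospholipid flippase (r = 0.98), Prtn3, a protease of myeloid granules (0.97), Itih3, a plasma hyaluronan-binding protein (0.97), Ldha, lactate dehydrogenase A (0.96), the transcript Gm16174 (0.95), Hp, haptoglobin (0.95), Cxcl1, a chemokine for neutrophils (0.95), and Ppp4r4, a phosphatase subunit (0.95). Of 17649 other genes, 49 had r above 0.9 and 6 below -0.9. These values describe the same libraries and carry no test. Hp, an acute-phase protein that binds free hemoglobin, was at 1653, 35610 and 8323 CPM in the wild-type DSS livers and at 1141 to 2090 CPM in the other 9. Itih3 was at 1136, 7046 and 2627 CPM and at 764 to 1280 CPM elsewhere. In both, liver 2 was above liver 3, as for fibrinogen. Liver 1 lay inside the range of the other 9 for both genes, whereas each fibrinogen chain in liver 1 lay above that range. Both genes were picked for their correlation with the chains, so a shared order was built into the choice. Prtn3 was at 0.475, 46.9 and 19.6 CPM, against 0.0828 to 0.961 CPM elsewhere, and Cxcl1 at 4.57, 203 and 24.0 CPM against 0.566 to 9.83 CPM.

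**Figure D5:**
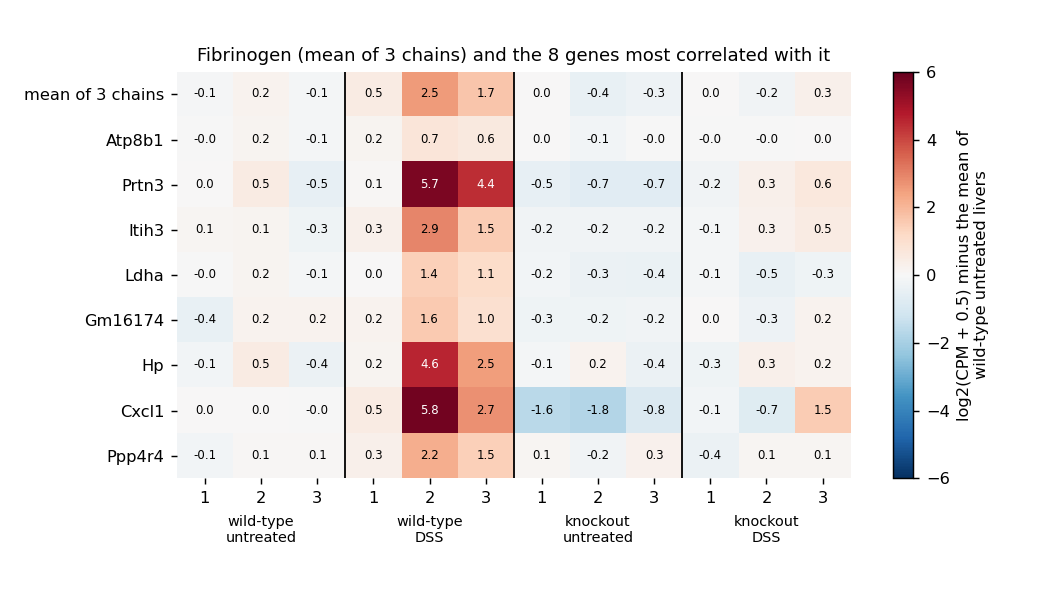
Log2(CPM + 0.5) minus the mean of the wild-type untreated livers, for the mean of the 3 chains and the 8 genes most correlated with it, in each liver. Wild-type DSS livers 2 and 3 carry the high values in every row, and wild-type DSS liver 1 is close to the untreated livers.

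The genes around fibrinogen were read from 7 lists, 90 tested genes in all. In the wild-type response edgeR called 1 of them, DESeq2 15 and limma-voom 0, and 33 had an unadjusted p under 0.05, where the shares of all genes were 0.685%, 5.61%, 1.19% and 14.5%. In the knockout-labelled response the counts were 13, 23, 19 and 38, beside 7.02%, 13.9%, 10.2% and 24.1% of all genes. The counts given for each list below are to be read against the same shares. With an Xist level over 100 CPM as a covariate none of these 13 passed and all 13 kept their direction. That covariate varies within the wild-type untreated group only, through its liver 3, and it raised the standard errors of the 13 by 1.68 to 1.93 times. The sizes moved as well: the log2 fold change of Socs1 went from 2.71 to 1.62, that of F11 from 0.93 to 1.496, that of Junb from 2.17 to 2.60 and that of Hnf4a from -0.70 to -0.49, while that of S100a10 was 1.76 and 1.77. Leaving out single knockout-labelled livers kept between 1 (without untreated liver 2) and 9 (without DSS liver 3) of them. Between untreated genotypes edgeR called 0 of 90 (23 with an unadjusted p under 0.05 beside 11.7% of all genes, 5 by DESeq2, 0 by limma-voom). After DSS it called 0 (28 beside 14.3%, 8 and 0), and for the difference between the responses 1 (29 beside 16.3%, 6 and 1).

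The interleukin 6 family list holds the signal that reaches Stat3. Of its 16 tested genes, Socs1, a feedback inhibitor of cytokine receptors, rose in both responses and was the only edgeR call of the wild-type response (9 with an unadjusted p under 0.05, 5 by DESeq2, 0 by limma-voom). Socs1 was at 0.105, 0.219 and 0.347 CPM in wild-type untreated and at 3.00, 1.13 and 0.828 CPM in wild-type DSS livers (log2 fold change 2.89, edgeR adjusted p 0.0222). In knockout-labelled livers it was at 0.611, 0.524 and 0.715 CPM untreated and at 3.68, 3.58 and 4.89 CPM after DSS (2.71, edgeR adjusted p 0.00810). With the Xist covariate this log2 fold change was 1.62 (SE 0.90, edgeR adjusted p 0.543). Wild-type DSS liver 1, with the least fibrinogen of its group, had the most Socs1, and the wild-type call was lost without wild-type untreated liver 1 or 2, in limma-voom, with only the groups compared and with at least 10 counts in every library, a filter that Socs1 does not pass.
Socs3, a feedback inhibitor that Stat3 induces, was at 5.56, 5.03 and 5.69 CPM in wild-type untreated and at 8.47, 69.9 and 26.1 CPM in wild-type DSS livers (2.68, edgeR adjusted p 0.0749). In knockout-labelled livers Socs3 was at 6.05, 5.01 and 7.42 CPM untreated and at 10.02, 8.43 and 12.2 CPM after DSS (0.73, edgeR adjusted p 0.468). The wild-type DSS livers stood in the same order for Socs3 as for the fibrinogen chains. The share of all genes with this order was not counted, here or for the genes below, so a match only describes these livers.
Il6, the cytokine itself, had 0 counts in all 3 knockout-labelled untreated livers and 30, 27 and 10 counts after DSS, at least 7.33-fold higher with 3 counts per library as the floor (edgeR adjusted p 0.0262). In wild-type livers Il6 had 0, 6 and 0 counts untreated and 31, 29 and 15 after DSS (edgeR adjusted p 0.173). Unlike fibrinogen, Il6 was not lowest in wild-type DSS liver 1. Tyk2, a kinase of cytokine receptors (0.55, edgeR adjusted p 0.0150), and Junb, an AP-1 subunit (2.17, 0.0311), rose in the knockout-labelled response. The Junb call was lost with the replicate number as a block and with no filter. Lifr, the receptor for leukemia inhibitory factor and the gene of highest CPM in the list, was at 513, 286 and 636 CPM in wild-type DSS livers and at 740, 1156 and 926 CPM untreated (-0.98, edgeR adjusted p 0.124). The median log2 fold change of the list was 0.75 in the wild-type and 0.49 in the knockout-labelled response, beside 0.02 and -0.01 for all genes tested, and it stayed at 0.49 with Il6 at its bound.

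Among 13 transcription factors of the fibrinogen promoters and the acute phase, none passed in the wild-type response in edgeR (5 with an unadjusted p under 0.05, 1 by DESeq2, 0 by limma-voom). Stat3 was at 45.7, 138 and 87.6 CPM in wild-type untreated and at 63.2, 330 and 307 CPM in wild-type DSS livers (1.37, edgeR adjusted p 0.288). Cebpd, an acute-phase C/EBP factor, was at 1.54, 2.00 and 1.34 CPM untreated and at 4.21, 15.6 and 2.62 CPM after DSS (2.2, edgeR adjusted p 0.123). The 2 wild-type DSS livers with the most Stat3 mRNA were those with the most fibrinogen mRNA. Hnf4a, a regulator of hepatocyte genes, had the highest CPM of these factors. Its level went from 1144, 1223 and 1226 CPM in knockout-labelled untreated livers to 624, 789 and 797 CPM after DSS, a log2 fold change of -0.70 that passed (edgeR adjusted p 0.0325). The list's median was 0.02 in the wild-type and -0.07 in the knockout-labelled response.

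Of 15 tested genes of fibrin formation, none passed in the wild-type response in edgeR (4 with an unadjusted p under 0.05, 1 by DESeq2, 0 by limma-voom), with medians of 0.29 in the wild-type and 0.04 in the knockout-labelled response. F11, coagulation factor XI, rose in the knockout-labelled response from 85.0, 84.6 and 63.9 to 131, 161 and 153 CPM (0.93, edgeR adjusted p 0.0213). In wild-type livers F11 was at 114, 87.98 and 68.3 CPM untreated and 156, 204 and 132 CPM after DSS (0.86, edgeR adjusted p 0.0815). F13a1, the A subunit of the factor that cross-links fibrin, also rose in the knockout-labelled response (2.60, edgeR adjusted p 0.0108) and stayed below 4 CPM in every liver. Kng1, kininogen, the gene of highest CPM in the list, was at 2169, 4423 and 2738 CPM in wild-type DSS livers and at 1849 to 2150 CPM untreated (0.63, edgeR adjusted p 0.237), with liver 2 again the highest.
Of 13 genes of fibrin lysis, none passed in the wild-type response in edgeR (7 with an unadjusted p under 0.05, 2 by DESeq2, 0 by limma-voom). In the knockout-labelled response Anxa2 (0.75, edgeR adjusted p 0.0216) and S100a10 (1.76, 0.00124), which together bind plasminogen at the cell surface, rose. S100a10 went from 41.4, 20.6 and 24.4 CPM to 110, 86.4 and 96.8 CPM there and from 56.5, 52.4 and 54.1 CPM to 53.6, 53.8 and 66.2 CPM in wild-type livers (0.09, edgeR adjusted p 0.896). The difference between its responses passed in edgeR (1.67, adjusted p 0.0431) and was the only such call in the 7 lists.
A2m, a broad protease inhibitor, was at 451 CPM in wild-type DSS liver 2 and at 0.725 CPM or less in the other 11 livers, so its high level rests on 1 library. Plg, plasminogen, the gene of highest CPM in the list, was at 2556, 2471 and 2153 CPM in wild-type untreated and at 2617, 4377 and 3660 CPM in wild-type DSS livers (0.57, edgeR adjusted p 0.241). The list's median was 0.49 in the wild-type and 0.75 in the knockout-labelled response.

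Among 16 relatives, partners and receptors of fibrinogen, none passed in the wild-type response in edgeR (7 with an unadjusted p under 0.05, 5 by DESeq2, 0 by limma-voom), with a median of 0.67. Fgl1, a fibrinogen-like protein secreted by hepatocytes, was at 65.1, 264 and 344 CPM in wild-type untreated and at 159, 3039 and 1739 CPM in wild-type DSS livers (2.87, edgeR adjusted p 0.174). Fn1, fibronectin, the gene of highest CPM in the list, was at 2025, 2568 and 2396 CPM untreated and at 3153, 7815 and 5392 CPM after DSS (1.23, edgeR adjusted p 0.0902). Both put the wild-type DSS livers in the order seen for the fibrinogen chains, but for Fgl1 liver 1 lay inside the untreated range. In knockout-labelled livers Fgl1 was at 62.8, 49.3 and 60.6 CPM untreated and at 343, 241 and 432 CPM after DSS (2.56, edgeR adjusted p 0.113). The log2 fold change of Fn1 there was -0.21 (edgeR adjusted p 0.728). In the knockout-labelled response, whose median was 0.57, Fgl2, a fibrinogen-like protein of immune cells (1.45, edgeR adjusted p 0.0118), Thbs1, thrombospondin 1 (1.54, 0.0177), and Itgb2, the β2 integrin chain of leukocytes (1.22, 0.0336), rose. Itgam, which pairs with Itgb2 in the fibrinogen receptor of myeloid cells, was at 0.625, 0.897 and 0.540 CPM untreated and at 7.10, 5.04 and 3.81 CPM after DSS in these livers (2.95, edgeR adjusted p 0.0655). In wild-type livers Itgam was at 0.973, 0.656 and 0.603 CPM untreated and at 4.49, 11.7 and 0.385 CPM after DSS (2.89, edgeR adjusted p 0.153). The wild-type log2 fold changes of Fgl2, Thbs1 and Itgb2 were 1.17, 0.48 and 0.59 (edgeR adjusted p 0.0792, 0.544 and 0.398). Markers of Kupffer cells and macrophages (7 of 9 with a row, none at 0) summed to 579 to 936 CPM in the knockout-labelled DSS livers and to 286 to 317 CPM in the untreated ones. Neutrophil markers summed to 6.36 to 22.3 CPM (1 of 6 at 0) and to 0.345 to 0.661 CPM (3 or 4 of 6 at 0). In wild-type livers the Kupffer cell and macrophage markers summed to 384 to 849 CPM after DSS and to 238 to 498 CPM untreated. The neutrophil markers there summed to 2.26 to 101 CPM and to 1.76 to 3.92 CPM, with up to 2 of 6 at 0. The part of these cells in the calls was not tested.

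Of 7 tested neighbours of the cluster on chromosome 3, none passed in the wild-type response in edgeR (2 with an unadjusted p under 0.05, 1 by DESeq2, 0 by limma-voom), and the list's median was -0.15 there and 0.26 in the knockout-labelled response. Tlr2, a receptor for bacterial lipoproteins, rose in the knockout-labelled response (1.6, edgeR adjusted p 0.0302) and was at 6.54, 23.6 and 9.57 CPM in wild-type DSS livers against 3.39 to 4.42 CPM untreated (1.71, 0.0710). In the wild-type response the log2 fold change was -0.11 for Trim2, a ubiquitin ligase and the neighbour of highest CPM (edgeR adjusted p 0.897), and -0.58 for Lrat, which esterifies retinol (0.326).
Of 11 genes of the secretory route, none passed in edgeR in either response, with medians of 0.03 in the wild-type and -0.15 in the knockout-labelled one. In the wild-type response none had an unadjusted p under 0.05 or was called by DESeq2 or limma-voom, and in the knockout-labelled one 4 had such a p and each of the other tools called 2. P4hb, protein disulfide isomerase, was at 1470, 1378 and 1315 CPM in wild-type untreated and at 1354, 2453 and 1920 CPM in wild-type DSS livers (0.46, edgeR adjusted p 0.407). Hspa5, the chaperone BiP, was at 1545, 1559 and 1686 CPM untreated and at 898, 1656 and 1004 CPM after DSS (-0.43, edgeR adjusted p 0.467).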

How the data were processed

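The authors depleted total liver RNA of rRNA, trimmed paired-end reads with fastp, aligned them to mm9 with HISAT2 and derived counts with StringTie, as their methods and processing notes state. The deposited table holds estimated counts as whole numbers, 1 column per liver, and was used without further rounding; the annotation version and strand setting are not given in the sources used here. Symbols, places and exon lengths came from GENCODE vM1. Of the 51609 rows of the deposited table, 23458 were 0 in all libraries. Groups came from the sample labels.

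In R 4.3.3, edgeR 4.0.16 filtered genes (filterByExpr, 17652 kept), scaled libraries by TMM and ran robust quasi-likelihood F tests in 1 model of the 4 groups, with Benjamini-Hochberg adjustment over all tested genes and a threshold of 0.05. The test was checked on simulated data with the same spread in every group, so the check does not cover the wider spread of the wild-type DSS livers. Exact permutation tests (two-sided, 20 arrangements, smallest p 0.1) and correlations used log2(CPM + 0.5), and ratio tests were adjusted over 12. Alternatives used DESeq2 1.42.0 and limma 3.58.1. P-values set a difference against the spread between these livers, which the main edgeR test pools over the 4 groups. The chains and lists were chosen with earlier results of these data known. Genes were named by a fixed rule: of each list, every gene past the threshold in any comparison, the gene of highest mean CPM and the 2 with the largest wild-type DSS fold change at a mean of at least 1 CPM; and the 8 genes most correlated with the chains. An item that this rule names is not reported here.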

Additional observations from a re-analysis of the deposited data

Results flagged for a closer look

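S100a10 was singled out because its DSS response differed between the genotypes in edgeR's interaction test (knockout-labelled minus wild-type, 1.67 on the log2 scale, adjusted p 0.0431). The 3 DSS-treated knockout-labelled livers, at 86.4 to 110 CPM, are also the ones with high Xist, and with an Xist level over 100 CPM as a covariate it was 1.68 (adjusted p 0.575). That covariate varies only through wild-type untreated liver 3 and raised the standard error 1.79 times. The call was kept without wild-type DSS liver 1, knockout-labelled untreated liver 1 or knockout-labelled DSS liver 2, and was lost without any other single liver.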

How the results depend on the processing

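Fga in the wild-type response crossed the threshold of 0.05 under small changes: its log2 fold change was 1.89 with DESeq2 size factors in edgeR, 1.87 with upper quartile scaling, 1.88 with no filter and 1.91 with at least 10 counts in every library (edgeR adjusted p 0.04996, 0.0498, 0.0465 and 0.0411). Other settings moved it away from the threshold. It was 1.89 with only the groups compared and 1.84 with the Xist covariate (edgeR adjusted p 0.212 and 0.164). Without wild-type untreated liver 1, 2 or 3 the edgeR adjusted p were 0.144, 0.118 and 0.169. Of 63 alternatives for the 3 chains in the wild-type response, 53 gave the same result as the main test and 10 passed. DESeq2's Wald test gave 1.89, 1.69 and 1.75 for Fga, Fgb and Fgg in that response, -1.95, -1.55 and -1.63 between the genotypes after DSS and -1.84 for Fga between the responses, all past the threshold; the cause was not tested. Leaving out 1 liver at a time gave 1.35 to 2.26, 1.07 to 2.06 and 1.10 to 2.14 for the wild-type response, -2.31 to -1.41, -1.93 to -0.94 and -2.02 to -0.98 between the genotypes after DSS, and -2.17 to -1.29, -1.64 to -0.66 and -1.74 to -0.71 between the responses. Every chain kept its direction in these 3 comparisons under all alternatives. In the knockout-labelled response Fga ran from -0.18 to 0.22 when 1 liver was left out and was below 0 without untreated liver 2 (-0.03) or DSS liver 3 (-0.18), and per count of Alb its difference was -0.10. The log2 ratio of Fgg to Fgb, which differed little between groups, changed sign without 1 liver in 3 comparisons, running from -0.113 to 0.088 (0.056 without untreated liver 1) in the knockout-labelled response, from -0.091 to 0.050 (0.010 without wild-type liver 3 and 0.0072 without knockout-labelled liver 2) between untreated genotypes and from -0.164 to 0.038 after DSS. As the share of Fgg in all 3 chains, the difference was -1.13 percentage points in the wild-type response, 2.13 in the knockout-labelled response and 2.14 between genotypes after DSS. The latter 2 rested on knockout-labelled DSS liver 1 and were -0.426 and -0.415 without it, an alternative chosen after seeing the data.

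With an Xist level over 100 CPM as a covariate, the genotype differences after DSS were -1.77, -1.30 and -1.44 (edgeR adjusted p 0.758, 0.811 and 0.811), and Fga in the knockout-labelled response was 0.27 with its SE raised from 0.38 to 0.73, since the covariate varies only through wild-type untreated liver 3. The replicate block gave 1.82, 1.62 and 1.70 for the wild-type response (edgeR adjusted p 0.0728, 0.106 and 0.119) and changed no call on a chain. The numbers gave no clear sign of pairing: deviations of same-numbered livers correlated at -0.073 to 0.206 (median -0.0038) over 18 pairs, and those of other livers at -0.257 to 0.220. Above 0.1 were 5 of the 18 same-numbered pairs and 6 of 36 other pairs. Pairing itself was not tested. Counts of all genes called ran, over the alternatives, from 21 to 840 in the wild-type response (121 in the main test), 4 to 2307 (1240) in the knockout-labelled response, 2 to 334 (11) between untreated genotypes, 5 to 585 (59) after DSS and 4 to 698 (72) between the responses, with DESeq2 the highest in each.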
